A study of Homo sapiens with 12 samples.

Results

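The ZNF genes outside chromosome 19 were taken as the protein-coding genes of the autosomes, other than chromosome 19, whose symbol is ZNF followed by a number. Of 254 such genes in the count data, 214 had at least 10 counts summed over the 6 libraries and were taken as members, out of 60609 genes listed in all. The remaining 40 had fewer counts, and 23 of them had none. The data are RNA-seq counts of K562, an established human cell line of erythroleukemic character that derives from chronic myeloid leukemia. Cells received the solvent DMSO (3 libraries, 48 h) or 10 μM FT671 (3 libraries, 48 h), a compound that blocks the ubiquitin-removing enzyme USP7, and all libraries came from the same unmodified line. The comparison asks how the levels of these genes differ after USP7 inhibition.

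Zinc finger proteins of the C2H2 type carry short loops held by a zinc ion, often in long tandem arrays that read DNA base by base. Many of them also carry a KRAB domain, which binds the corepressor TRIM28 and through it the histone methyltransferase SETDB1 and HP1 proteins, and are best known for silencing transposable elements. Others carry a SCAN domain, through which they pair with each other, or have left DNA recognition altogether and act on RNA, ribosomes or ubiquitin. In blood cells, members of the family help to set lineage programs and to keep stretches of the genome silent. Chromosome 19 holds the densest arrays of KRAB zinc finger genes, whereas the members described here are scattered over 19 other autosomes.

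By a profile search of the canonical proteins, 99 of the 214 members carried a KRAB domain, 18 a SCAN domain and 11 both. Counts summed to between 4555220 and 14250500 per library, so that 3 counts, the smallest level regarded as detectable, corresponded to between 0.208 and 0.666 CPM (counts scaled to the size of the library), an estimate of counting error only. Of the members, 198 passed the filter on low counts and were tested with edgeR's quasi-likelihood test among 13895 genes. Their mean level over the 6 libraries ranged from 1.1 to 257 CPM (median 13.4 CPM). The other 16 had between 10 and 54 counts in all and no test was made: ZNF300, ZNF354A, ZNF385D, ZNF474, ZNF483, ZNF516, ZNF572, ZNF605, ZNF670-ZNF695, ZNF703, ZNF713, ZNF750, ZNF804A, ZNF804B, ZNF843 and ZNF879. The erythroid genes of the marker list were present, with a summed level of 1210 to 1260 CPM over 8 genes in DMSO and 979 to 1010 CPM in FT671, and all 7 tested changed (5 lower, 2 higher). In the lists of 3 genes each for other cell types, CD2 and MS4A1 had no counts, fibroblast markers summed to at most 2.91 CPM and B cell markers to at most 3.76 CPM in any library. The T cell list was carried by CD3D (16.8 to 20.5 CPM for the list in DMSO, 23.7 to 29.3 CPM in FT671) and the monocyte list by LYZ (51.2 to 54.0 and 72.2 to 76.0 CPM). Both genes rose with FT671, and their part in the results below was not tested.

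Upon FT671 treatment more members fell than rose. At an adjusted p of 0.05, 64 of the 198 tested members were lower (32.3%) and 25 were higher (12.6%), while 109 passed in neither direction. Over all genes tested, 26.5% were lower and 23.6% were higher, and over the 11149 protein-coding genes among them, which is what the members are, 29.1% and 24.7%. The share of lower members was thus little above that of protein-coding genes and the share of higher members was below it. Among the 133 tested members whose exons overlap no other tested gene, 27.8% were lower and 13.5% higher. The share of lower members was then near that of all genes tested and below that of protein-coding genes, neither of which was filtered for overlap. The share of higher members stayed below that of all genes. In these 133 members the median log2 fold change was -0.17, and 89 had a negative and 44 a positive value. The median log2 fold change was -0.17 over the members and -0.01 over all genes tested, and 128 members had a negative and 70 a positive value. All 3 FT671 libraries lay below all 3 DMSO libraries in 75 tested members, against 30.3% of all genes, and above them in 32, against 26.8% of all genes. In DMSO the mean log2 CPM over the tested members was 3.86, 3.84 and 3.95, and with FT671 it was 3.66, 3.66 and 3.67, so that the groups did not overlap. Over all genes tested it was 4.40, 4.39 and 4.39 in DMSO and 4.35, 4.34 and 4.35 in FT671, so that the groups did not overlap there either. The tested ZNF genes of chromosome 19 had 2.93, 2.86 and 3.08 in DMSO and 2.77, 2.78 and 2.77 in FT671, again without overlap. As these are bulk samples, less RNA of a gene per cell and fewer cells expressing it cannot be told apart.

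**Figure D1:**
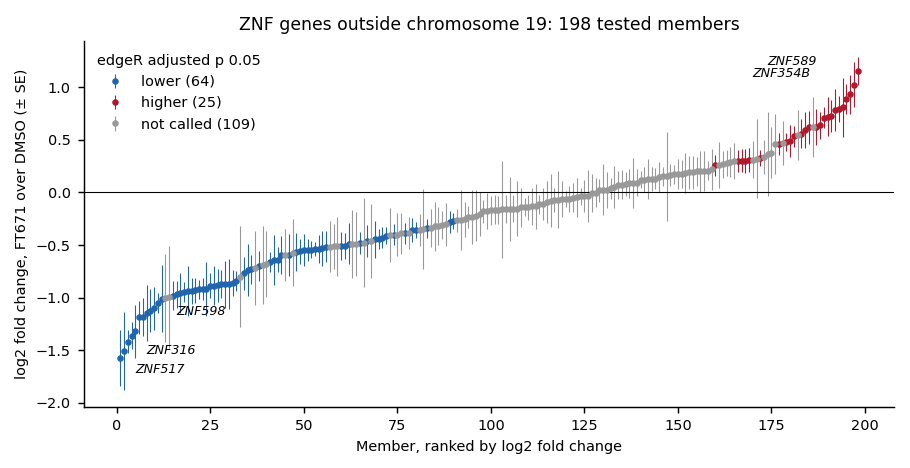
The 198 tested members are ranked along the x axis by log2 fold change of FT671 over DMSO, which is on the y axis with its SE, and are coloured by their call at an edgeR adjusted p of 0.05. Blue points (64 lower members) reach down to -1.58 and red points (25 higher members) up to 1.15.

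Falls were also larger than rises. Among the 64 lower members, the median log2 fold change was -0.74 and 12 fell by more than 1 on the log2 scale. Among the 25 higher members, the median was 0.62 and 2 rose by more than 1. For comparison, the medians over all genes called lower and higher were -0.66 and 0.55. The share of all genes that changed by more than 1 is not given here. At an adjusted p of 1e-05, the threshold of the study, 7 members were lower and 1 was higher, where 4.13% and 1.79% of all genes tested were called. These latter counts of members moved when single libraries were left out, which also leaves fewer libraries to compare. Without DMSO replicate 3 they were 21 and 11, and leaving out any of the other 5 libraries gave at most 2 lower members and no higher member (1 lower without DMSO replicate 1, 2 without DMSO replicate 2, 2 without FT671 replicate 1, 1 without FT671 replicate 2 and none without FT671 replicate 3).

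The member with the smallest p-value was ZNF316 (ENSG00000205903), a KRAB zinc finger gene at chr7:6637318-6658279 (hg38, GENCODE 44, as for all genes below). Its level was 51.4, 50 and 44 CPM in DMSO and 18.9, 17.0 and 18.8 CPM in FT671, a log2 fold change of -1.42 ± 0.11 (SE, edgeR adjusted p = 2.48e-07). All FT671 libraries were well below the lowest DMSO library. On the opposite strand, 30153 bases further on, lies ZNF12, another KRAB gene, which went from 18.6, 19.2 and 23.7 CPM to 11.1, 10.1 and 6.79 CPM (log2 fold change -1.18 ± 0.18, edgeR adjusted p = 9.36e-05). Both neighbours were lower in every FT671 library. Their exons had a GC content of 62.6% and 42.5%, and its part in these changes was not tested.

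Next was ZNF598 (chr16:1997654-2009821, minus strand), which encodes a ubiquitin ligase that recognises collided ribosomes rather than a DNA-binding factor. It was at 125, 122 and 103 CPM in DMSO and at 60, 58.1 and 53.2 CPM in FT671 (log2 fold change -1.05 ± 0.09, edgeR adjusted p = 9.03e-07). FT671 libraries thus held about the same level as each other and none came near a DMSO library. A tested antisense gene shares 504 bases of its exons and had a log2 fold change of -1.02. Since the strand setting of the counting is not given in the sources used here, reads of such pairs cannot be told apart.

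ZNF629 (chr16:30778456-30787205), with 19 C2H2 fingers and no KRAB domain, fell from 32.2, 33.3 and 34.8 CPM to 16.0, 11.7 and 12 CPM (log2 fold change -1.36 ± 0.13, edgeR adjusted p = 1.57e-06). In ZNF282, a KRAB gene known as a repressor of a human retroviral promoter, 143, 150 and 125 CPM in DMSO stood against 80.0, 70 and 71.9 CPM in FT671 (-0.92 ± 0.09, edgeR adjusted p = 1.96e-06). Its neighbour ZNF398, 12503 bases upstream on the same strand, was at 46.6, 46.6 and 44.2 CPM and then at 26.7, 24.0 and 22.9 CPM (-0.92 ± 0.10, edgeR adjusted p = 6.95e-06). In none of these genes did the groups overlap.

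ZNF687 and ZNF672, also past 1e-05, carry no KRAB domain. ZNF687 encodes a partner of the chromatin reader ZMYND8 and went from 58.9, 56.6 and 56.4 CPM to 29.1, 29.0 and 30.7 CPM (-0.95 ± 0.09, edgeR adjusted p = 2.32e-06). ZNF672 on chromosome 1 went from 65.2, 71.4 and 65.4 CPM to 39.3, 35.9 and 37.6 CPM (-0.84 ± 0.09, edgeR adjusted p = 5.66e-06). The SD between replicates of ZNF687 was 1.41 CPM in DMSO and 0.967 CPM in FT671, small beside the difference, and its exons share 383 bases with ZNF687-AS1 (log2 fold change -0.71) and 380 with PI4KB (-0.41) on the opposite strand. ZNF672 ends 488 bases from the end of ZNF692, which lies on the opposite strand and moved the other way. The exon GC content was 61.6% in ZNF672 and 58.6% in ZNF692, and its part in these changes was not tested. ZNF692 rose from 31.7, 28.9 and 33.6 CPM to 52.6, 51.2 and 50 CPM (0.71 ± 0.10, edgeR adjusted p = 4.41e-05).

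The strongest rise was that of ZNF589 (chr3:48241100-48299253), a KRAB gene first described in hematopoietic stem cells. Its level was 13, 16.0 and 18.7 CPM in DMSO and 34.9, 31.9 and 36.1 CPM in FT671, a log2 fold change of 1.15 ± 0.13 (edgeR adjusted p = 8.63e-06). Every FT671 library was far above the highest DMSO library. It was the only member higher at 1e-05 in the fit of all 6 libraries.

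The promoter letters of both the most clearly lowered and the most clearly raised members are shown because KDM2B, the DNA-binding subunit of the Polycomb complex PRC1.1 in which USP7 acts, binds CpG sites through its CXXC domain. Given are the 250 bases before the RefSeq start (GRCh38.p14), 5′ to 3′ on the strand of the gene, with every CG in capitals, for the 2 lower and the 2 higher members of smallest p whose window shares at most 30 bases with annotated exons and whose sequence could be shown. The windows are chr7:6637068-6637317 (plus strand, ZNF316), chr16:30787206-30787455 (minus strand, ZNF629), chr3:48240854-48241103 (plus strand, ZNF589) and chr1:89994860-89995109 (plus strand, ZNF326).
ZNF316: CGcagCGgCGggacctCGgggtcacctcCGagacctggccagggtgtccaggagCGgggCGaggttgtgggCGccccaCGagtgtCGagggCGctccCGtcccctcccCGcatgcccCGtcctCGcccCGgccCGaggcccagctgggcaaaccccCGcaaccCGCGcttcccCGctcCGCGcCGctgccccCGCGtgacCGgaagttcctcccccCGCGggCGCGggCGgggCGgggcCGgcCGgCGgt
ZNF629: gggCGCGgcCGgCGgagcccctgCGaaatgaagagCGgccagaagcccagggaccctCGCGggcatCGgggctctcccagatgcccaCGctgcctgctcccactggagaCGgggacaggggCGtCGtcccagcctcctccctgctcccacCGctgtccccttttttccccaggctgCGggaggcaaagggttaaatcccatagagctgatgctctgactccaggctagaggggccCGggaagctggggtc
ZNF589: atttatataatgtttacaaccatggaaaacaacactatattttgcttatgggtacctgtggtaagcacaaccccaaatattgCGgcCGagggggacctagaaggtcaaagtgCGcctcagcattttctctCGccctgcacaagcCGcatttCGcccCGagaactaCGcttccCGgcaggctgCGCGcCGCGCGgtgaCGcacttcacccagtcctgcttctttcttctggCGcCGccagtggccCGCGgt
ZNF326: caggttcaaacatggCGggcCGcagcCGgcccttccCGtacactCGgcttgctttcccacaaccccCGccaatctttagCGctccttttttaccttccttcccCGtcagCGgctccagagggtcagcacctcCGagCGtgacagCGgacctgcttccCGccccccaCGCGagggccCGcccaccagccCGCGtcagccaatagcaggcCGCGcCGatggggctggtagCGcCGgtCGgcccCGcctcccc
These windows held 36 and 16 CG in the lowered genes and 19 and 25 in the raised genes, so that both groups had CG-rich and less CG-rich starts. A promoter was matched for 168 of the tested members. The median was 22 CG over 54 lower members, 19 over 21 higher members and 19 over 93 members called in neither direction, and 21 over the 9864 tested genes with a matched promoter. Across the 168 members, Spearman's rho between the number of CG and the log2 fold change was -0.106, a description over genes that share libraries and base composition.

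Of the 10 largest falls among called members whose groups did not overlap (mean level 1 CPM or more), 5 encode KRAB proteins beside ZNF316 (ZNF517, ZNF484, ZNF862, ZNF12 and ZNF786) and 4 do not (ZNF629, ZNF219, ZNF513 and ZNF319). ZNF517 on chromosome 8 had the lowest log2 fold change of all members, from 5.54, 5.22 and 5.92 CPM to 2.67, 1.08 and 1.88 CPM (-1.58 ± 0.27, edgeR adjusted p = 0.000248). ZNF484 fell from 2.15, 2.66 and 3.88 CPM to 1.33, 0.541 and 0.983 CPM (-1.51 ± 0.37, edgeR adjusted p = 0.00396), near the level of a few counts. These 2 genes were low in all libraries and their SEs were more than 2 times that of ZNF316. ZNF862 went from 7.69, 7.05 and 5.73 CPM to 4, 1.8 and 2.77 CPM (-1.32 ± 0.25, edgeR adjusted p = 0.000556). It shares 2215 exonic bases with an antisense gene whose log2 fold change was -1.18.

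ZNF219, a member of the list of chromatin genes below, was at 13.4, 14.4 and 11.6 CPM and at 6, 5.77 and 5.81 CPM after FT671 (-1.19 ± 0.16, edgeR adjusted p = 3.37e-05). ZNF786 went from 7.96, 7.24 and 7.95 CPM to 2.67, 5.77 and 2.50 CPM (-1.15 ± 0.26, edgeR adjusted p = 0.0024), with FT671 replicate 2 closest to DMSO. For ZNF513, a gene linked to retinal degeneration, 8.31, 10.6 and 8.50 CPM stood against 5.33, 4.15 and 3.66 CPM (-1.12 ± 0.20, edgeR adjusted p = 0.0004). ZNF319 completed the set with 12.3, 10.9 and 7.21 CPM in DMSO and 5.33, 4.69 and 4.83 CPM in FT671 (-1.10 ± 0.21, edgeR adjusted p = 0.000577). Its DMSO libraries spread more widely than its FT671 libraries but stayed above them. ZNF219, ZNF513 and ZNF319 each share between 172 and 301 exonic bases with an antisense neighbour (ARHGEF40 at -0.41, SNX17 at -0.49 and USB1 at 0.30).

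**Figure D2:**
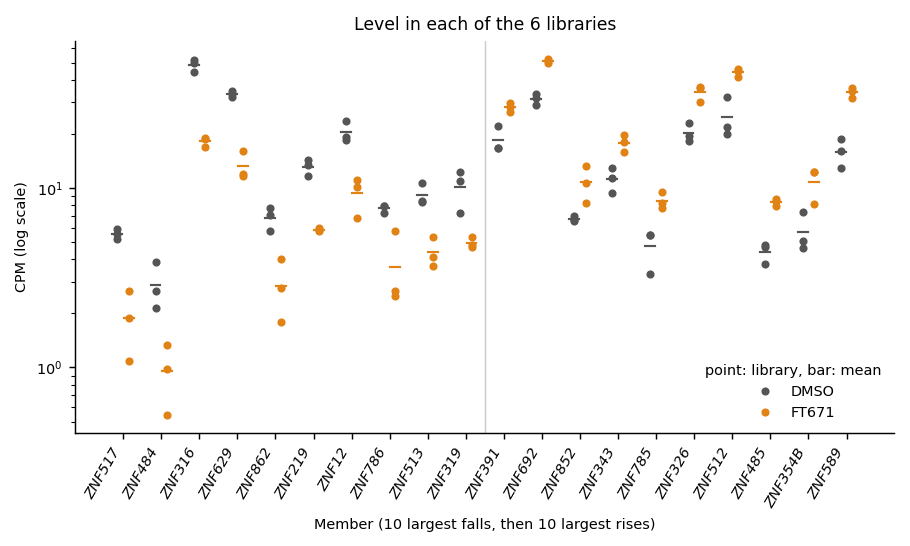
Level in CPM (y axis, log scale) of the 10 members with the largest falls and the 10 with the largest rises (x axis) in each of the 3 DMSO and 3 FT671 libraries, where points are libraries and bars are means. In each gene the FT671 points lie wholly below (left side) or wholly above (right side) the DMSO points, from ZNF484 at 0.541 CPM in FT671 replicate 2 to ZNF692 at 52.6 CPM in FT671 replicate 1.

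Among the 10 largest rises, 6 encode KRAB proteins (ZNF589, ZNF354B, ZNF485, ZNF785, ZNF343 and ZNF852) and 4 do not (ZNF512, ZNF326, ZNF692 and ZNF391). ZNF354B went from 4.64, 5.04 and 7.39 CPM to 12.2, 8.12 and 12.2 CPM (1.03 ± 0.21, edgeR adjusted p = 0.00115), but 15.3% of the 50-base windows of its transcripts also occur in transcripts of other genes, so that its counts are uncertain. ZNF485 rose from 4.71, 3.76 and 4.81 CPM to 8.44, 7.94 and 8.67 CPM (0.93 ± 0.18, edgeR adjusted p = 0.000774). The latter gene shared none of its windows with other genes and its replicates lay close together. In ZNF512, 20, 21.9 and 32.2 CPM in DMSO stood against 41.5, 44.7 and 45.8 CPM in FT671 (0.89 ± 0.15, edgeR adjusted p = 0.000211). DMSO replicate 3 was the highest of the DMSO libraries there, as it was in 8 of the 10 largest rises and in 4 of the 10 largest falls.

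ZNF326, a subunit of the DBIRD complex that couples RNA polymerase elongation to splicing, went from 19.5, 18.2 and 23.1 CPM to 30.2, 36.1 and 36.7 CPM (0.79 ± 0.12, edgeR adjusted p = 0.000109). ZNF785 was at 5.47, 5.50 and 3.33 CPM and at 8.22, 7.76 and 9.47 CPM (0.78 ± 0.20, edgeR adjusted p = 0.00481), and an antisense gene that overlaps 1339 of its exonic bases had a log2 fold change of 0.88. The last 3 of the set, ZNF343, ZNF852 and ZNF391, had log2 fold changes of 0.73 ± 0.15, 0.72 ± 0.18 and 0.64 ± 0.13. Their edgeR adjusted p-values were 0.00114, 0.00475 and 0.00089. ZNF852 lost its call without FT671 replicate 3 (edgeR adjusted p = 0.0723), the only one of these 20 genes whose call changed under an alternative in which it was tested. ZNF517 and ZNF484 were not tested with at least 10 counts in every library.

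The 6 members most abundant for their length were described next. In RPKM, which is CPM divided by the exon length in kilobases, ZNF593 reached 113, ZNF593OS 42.1, ZNF22 42.1, ZNF385A 40.1, ZNF622 31.1 and ZNF282 28.3 as the mean of the 6 libraries. ZNF593 and ZNF622 serve the assembly of the large ribosomal subunit, and ZNF385A binds RNA and partners with p53. ZNF282 is the only one with a KRAB domain, and the only one of these 6 that fell. ZNF22 rose from 66.6, 67.9 and 83.9 CPM to 94.2, 109 and 109 CPM (0.53 ± 0.10, edgeR adjusted p = 0.000537), and ZNF385A from 115, 109 and 115 CPM to 151, 137 and 139 CPM (0.33 ± 0.07, edgeR adjusted p = 0.0021). Groups did not overlap in either, and ZNF22 shares 796 exonic bases with the antisense pseudogene CEP164P1 (log2 fold change 0.49). ZNF593 had 81.0, 80.6 and 57.9 CPM in DMSO and 99.3, 86.6 and 88.9 CPM in FT671 (0.30 ± 0.11, edgeR adjusted p = 0.0399). It shares 732 bases with ZNF593OS on the other strand, whose log2 fold change was the same to 2 decimals (0.30 ± 0.11, edgeR adjusted p = 0.0284), so that the 2 cannot be separated. ZNF593 lost its call in 6 of 17 alternatives. ZNF622 had a log2 fold change of 0.15 ± 0.09 and was not called (edgeR adjusted p = 0.168).

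The members were next grouped by known role, in lists that were chosen with earlier results of these data known. Beside the shares of all genes given with each list, 29.1% of the protein-coding genes tested were lower and 24.7% higher. A list of 16 genes that work in chromatin complexes held 14 members, of which 13 were tested. Of these, 9 were lower (69.2%), 1 was higher (7.69%) and 3 were not called, with a median log2 fold change of -0.45, beside 26.5% lower, 23.6% higher and a median of -0.01 over all genes tested. Beside ZNF219 and ZNF687, the lower genes of the list were ZNF512B (-0.73), ZNF518B (-0.64), ZNF335 (-0.56), ZNF445 (-0.55), ZNF518A (-0.45), ZNF217 (-0.34) and ZNF592 (-0.27). ZNF445 protects imprinted DNA methylation, ZNF217 works with the LSD1-CoREST repressor and ZNF592 is a further partner of ZMYND8. ZNF592 had the most counts of the list and went from 119, 129 and 133 CPM to 98.6, 111 and 105 CPM (edgeR adjusted p = 0.0107). ZNF532, a further ZMYND8 partner on the list, had no counts in any library and was no member. ZNF512 was the higher gene, and ZNF281, a stem cell factor, had a log2 fold change of 0.07 ± 0.13 (edgeR adjusted p = 0.698).

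All 8 members listed as promoter activators were tested. Of these, 4 were lower (50%) and 1 was higher (12.5%), beside 26.5% and 23.6% of all genes tested. The median log2 fold change of the list was -0.30. ZNF263, a KRAB and SCAN protein, fell from 45.8, 43.1 and 44.5 CPM to 18.2, 27.1 and 23.9 CPM (-0.93 ± 0.12, edgeR adjusted p = 3.23e-05), while sharing 2296 exonic bases with the antisense gene TIGD7 (log2 fold change -0.21). ZNF384, which is fused to other genes in acute leukemia, fell from 63.4, 70 and 62.5 CPM to 40.6, 44.4 and 39.2 CPM (-0.66 ± 0.09, edgeR adjusted p = 5.94e-05). It shares 1651 exonic bases with an antisense gene whose log2 fold change was -0.63. ZNF148 (-0.77) and ZNF143 (-0.44), an activator of many housekeeping and small nuclear RNA promoters, were the other lower genes. The SCAN gene ZNF24 had the most counts and rose from 144, 138 and 187 CPM to 171, 212 and 192 CPM (0.30 ± 0.11, edgeR adjusted p = 0.0335), although its groups overlapped and its call was lost in 5 of 17 alternatives. ZNF410, known as a dedicated activator of CHD4, had 3.53, 4.40 and 4.44 CPM in DMSO and 6.44, 5.23 and 5.36 CPM in FT671 and was not called (0.47 ± 0.21, edgeR adjusted p = 0.0733). It passed under the correction for GC content and the 2 corrections for gene length (edgeR adjusted p = 0.0468, 0.0285 and 0.0402), and shares 1019 exonic bases with the antisense gene FAM161B (log2 fold change 0.48).

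Of 13 tested members that act on RNA, ribosomes or protein quality, 2 were lower (15.4%) and 4 were higher (30.8%), with a median of 0.12. These shares lie nearer to those of all genes tested (26.5% and 23.6%) than the shares of the chromatin list do. ZNF598 and ZNF451, a SUMO ligase that went from 87.7, 79.0 and 113 CPM to 68.2, 71.6 and 75.4 CPM (-0.36 ± 0.11, edgeR adjusted p = 0.0184), were the lower genes, and ZNF451 shares 1030 exonic bases with ZNF451-AS1 (0.31). Higher were ZNF326, ZNF385A, ZNF593 and ZNF330, a nucleolar protein (0.26 ± 0.10, edgeR adjusted p = 0.0438). ZNF207, which carries BUB3 to the spindle and had the most counts of the list, stood at 152, 157 and 173 CPM in DMSO and 160, 176 and 185 CPM in FT671 (0.12 ± 0.08, edgeR adjusted p = 0.227). The difference between the 2 lists was not tested.

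Of 17 genes on the list of developmental regulators, 10 were members and 7 were tested. Of these 7, 4 were lower and none was higher (3 were not called, median -0.54), where 26.5% and 23.6% of all genes tested were called. ZNF609, the member with the most counts of all, fell from 288, 310 and 315 CPM to 210, 209 and 209 CPM (-0.54 ± 0.07, edgeR adjusted p = 2.08e-05). ZNF395 had 17.4, 17.2 and 17.0 CPM in DMSO and 9.11, 10.5 and 8.85 CPM in FT671 (-0.87 ± 0.13, edgeR adjusted p = 0.000114). ZNF608 (-0.92) and ZNF521 (-0.52), a regulator of immature blood cells, were the other 2. ZNF407 was not called, at 0.19 ± 0.16 (edgeR adjusted p = 0.323).

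**Figure D3:**
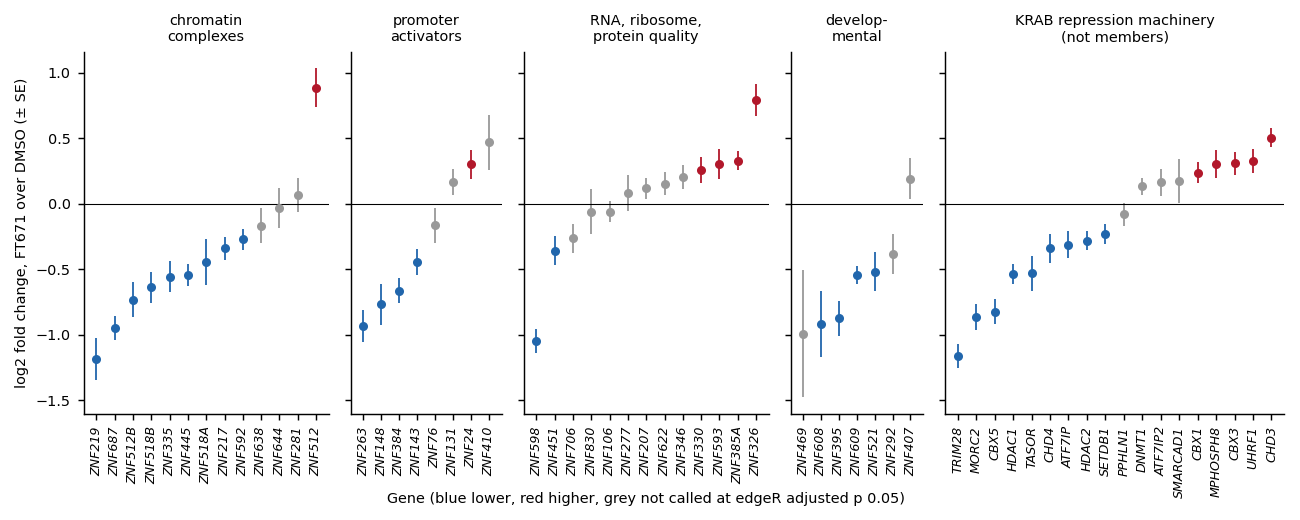
Log2 fold change of FT671 over DMSO with its SE (y axis) for each tested gene (x axis) of the 4 role lists of members and of the KRAB repression machinery, which holds no members. The lists were chosen with earlier results of these data known. Blue points are lower, red points are higher and grey points are not called at an edgeR adjusted p of 0.05, and the chromatin list has 9 blue points and 1 red point where the RNA, ribosome and protein quality list has 2 and 4.

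Of 92 tested KRAB members, 23 were lower (25%) and 12 higher (13%), with a median log2 fold change of -0.14. Over all genes tested, 26.5% were lower and 23.6% higher, with a median of -0.01. For protein-coding genes these values were 29.1%, 24.7% and -0.02. The share of lower KRAB members was thus close to that of all genes, while the share of higher ones was below it. Of 106 without KRAB domain, 41 were lower (38.7%) and 13 higher (12.3%), with a median of -0.29. The KRAB members also had fewer counts (median of the means 8.62 against 21.6 CPM, a scale not set per length, at median exon lengths of 5551 and 5855.5 bases) and a lower exon GC content (45.1% against 47.4%), and the difference itself was not tested. Of the 17 tested SCAN members, 6 were lower (35.3%) and 2 higher (11.8%), with a median of -0.35. Among the 10 that carry both domains, 4 were lower (40.0%) and none was higher. Both sets stand beside the 26.5% and 23.6% of all genes tested.

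The machinery that KRAB domains call on changed as well. Of 18 genes on this list, all were tested, 9 were lower (50%), 5 were higher (27.8%) and 4 were not called, with a median of -0.16, where 26.5% and 23.6% of all genes tested were called. TRIM28, the KRAB corepressor itself, fell from 708, 717 and 592 CPM to 337, 271 and 295 CPM (-1.16 ± 0.09, edgeR adjusted p = 3.73e-07). Also past 1e-05 were CBX5, which encodes an HP1 protein (578, 561 and 707 against 320, 344 and 377 CPM, -0.82 ± 0.09, edgeR adjusted p = 7.88e-06) and MORC2, a chromatin-compacting ATPase (66.6, 68.3 and 80.8 against 39.3, 38.2 and 39.8 CPM, -0.87 ± 0.10, edgeR adjusted p = 8.52e-06). SETDB1 fell only slightly, from 94.7, 91.8 and 92.6 CPM to 78.6, 78.5 and 80.7 CPM (-0.23 ± 0.07, edgeR adjusted p = 0.0193), and lost its call in 7 of 17 alternatives. The other HP1 genes CBX1 (0.24) and CBX3 (0.31) rose, as did UHRF1 (0.33), MPHOSPH8 (0.31) and CHD3 (0.50). The libraries do not tell whether these changes bear on the KRAB members, and this was not tested.

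The ZNF genes of chromosome 19 were described in the same way. Of the 197 chromosome 19 genes with at least 10 counts, 154 were tested. Of these, 36 were lower (23.4%) and 18 were higher (11.7%), beside 26.5% and 23.6% of all genes tested. They had a median log2 fold change of -0.19, where that of the members was -0.17. This median rested on single libraries, since it was -0.098 without DMSO replicate 3 and -0.10 without FT671 replicate 3, while that of the members was -0.16 and -0.20. Of the chromosome 19 genes tested, 127 had a KRAB domain, and 26 were lower and 15 were higher. The tested genes of chromosome 19 had fewer counts, with a median of 6.47 CPM against 13.4 CPM of the members at about the same median exon length (5706 and 5702 bases). No test was made between the lists. Related families of C2H2 genes were taken by symbol. Of 37 tested ZBTB genes, 19 were lower and 4 higher (median -0.37). Of 13 ZSCAN genes 6 and 1, of 6 ZKSCAN genes 4 and 1, and of 15 ZFP genes 6 and 3 were lower and higher. All 4 families had a median between -0.41 and -0.33.

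GC content of the exons moved with the result. Where it was 55% or more, 26 of 48 tested members were lower (54.2%) and 4 were higher, with a median log2 fold change of -0.52. Between 45 and 55%, 20 of 59 were lower and 6 higher (median -0.26). Under 45%, 18 of 91 were lower and 15 higher (median -0.06). All genes tested showed a much weaker gradient, with 32.6%, 27.3% and 21.2% lower in the same 3 classes. Higher were 22.9%, 23.1% and 24.5% of them, and the medians were -0.08, -0.02 and 0.04. Across the 198 members, Spearman's rho between exon GC content and log2 fold change was -0.281, against -0.0827 across 13872 genes, and members share the libraries and their depth. With the correction for GC content, 26 members of the GC-rich class were lower and 6 higher, and the median of the class was -0.42. Of all 3932 genes tested in that class, 1197 were then lower and 1212 higher, with a median of 0.02. The correction was fitted over all genes tested, where the trend was weak. It could therefore remove little of a steeper trend among the members. Exon length (rho -0.0462), the number of fingers (-0.0574) and the mean level (0.136) were more weakly related to the change.

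By level, more members were lower than higher in each of 4 classes, as were all genes in the middle classes. Below a mean of 3 CPM, 3 of 23 members were lower (13%) and none was higher, against 13.2% and 15% of all genes at that level. From 3 to 10 CPM, 15 of 59 were lower (25.4%) and 6 higher (10.2%), against 21.0% and 16.9%. From 10 to 30 CPM, 24 of 61 were lower (39.3%) and 8 higher (13.1%), against 32.7% and 20.9%. At 30 CPM or more, 22 of 55 were lower (40.0%) and 11 higher (20%), against 30.3% and 30.8%. Of the 5 tested members with no finger, 1 was lower and 2 were higher (median 0.02), too few to give a direction. The 2 higher genes were ZNF330 and ZNF593OS, and the latter cannot be separated from ZNF593. By number of fingers, 20 of 53 members with 1 to 5 fingers were lower (37.7%) and 9 higher (17.0%). With 6 to 10 fingers, 20 of 71 were lower (28.2%) and 8 higher (11.3%). With 11 or more, 23 of 69 were lower (33.3%) and 6 higher (8.7%). Over all genes tested, the shares were 26.5% and 23.6%.

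Members are not independent in position, as many sit in arrays of duplicated genes. Taking at least 4 members with no gap over 500 kb between neighbours, 11 clusters were found. The counts below stand beside 26.5% lower and 23.6% higher of all genes tested. In 30.3% of all genes tested, every FT671 library lay below every DMSO library. In the cluster from ZNF205 to ZNF597 (chr16:3112560-3443504), all 7 members had every FT671 library below every DMSO library, and 6 of them were called lower. These were ZNF75A (-0.94), ZNF263 (-0.93), ZNF213 (-0.93), ZNF174 (-0.53), ZNF205 (-0.51) and ZNF200 (-0.49, edgeR adjusted p = 0.05 after rounding and just inside the threshold), and ZNF597 had a log2 fold change of -0.57 (edgeR adjusted p = 0.154). The 4 other tested genes in this span also had negative values (-0.66 to -0.21, median -0.41), of which 1 was called lower, so that the direction was not limited to the members. ZNF263 and ZNF75A share exonic bases with TIGD7, and ZNF213 and ZNF205 with ZNF213-AS1.

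The cluster from ZNF786 to ZNF862 (chr7:149069641-149867479) held 10 members, 9 with a KRAB domain, and 5 were lower and none higher (median -0.44). Of the 4 other tested genes in this span, 1 was lower and 1 higher, with a median of -0.64. Beside ZNF786, ZNF398, ZNF282 and ZNF862, the 5 lower members included ZNF746, which encodes a substrate of parkin (-0.41, edgeR adjusted p = 0.00111). Between them lie ZNF783 (0.05), ZNF777 (-0.04) and ZNF467 (0.17), none of which was called. In the cluster from ZNF48 to ZNF267 (chr16:30378106-31917357), 5 of 12 tested members were lower (ZNF629, ZNF48, ZNF689, ZNF668 and ZNF646) and ZNF785 was higher, while 14 of 48 other tested genes of the span were lower and 8 higher. On chromosome 8, ZNF517 and ZNF251 (-0.97) were the lower genes among 6 from ZNF251 to ZNF16. Of the 2 other tested genes of that span, none was lower and 1 was higher. All these counts stand beside 26.5% lower and 23.6% higher of all genes tested.

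Other clusters held few or opposite calls. The shares over all genes tested were 26.5% lower and 23.6% higher. From ZNF445 to ZNF501 on chromosome 3, ZNF445 and ZNF35 were lower and ZNF852, which lies between them, was higher. From ZNF736 to ZNF92 on chromosome 7, ZNF736 and ZNF117 were lower and ZNF92 was higher, and ZNF117 shares 825 bases with ERV3-1 on the same strand. From ZNF695 to ZNF496 on chromosome 1, ZNF496 was lower and ZNF695 higher. Single members were higher in the clusters of ZNF3 on chromosome 7 and of ZNF33A and ZNF485 on chromosome 10. The cluster from ZNF605 to ZNF268 on chromosome 12, which includes ZNF10, the source of the KRAB domain used in engineered repressors, had no call among 6 tested members, with log2 fold changes between -0.68 and 0.30.

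By chromosome, 15 of 28 tested members on chromosome 16 were lower (53.6%) and 1 was higher, against 33.1% and 20.8% of the 668 other tested genes of that chromosome, and the median exon GC content of these members was 57.8%. On chromosome 7, 10 of 26 were lower and 2 higher, against 25.4% and 24.6% of the other genes. On chromosome 9, 5 of 9 were lower and none was higher, against 28.3% and 23.8% of the other genes. On chromosome 10, 1 of 13 was lower and 3 were higher (23.1%), against 29.0% and 20.7%. The counts on single chromosomes are small and were not tested against each other.

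Overlap with other genes limits how far single values can be read. Of the 198 tested members, 65 share exonic bases with another tested gene, and of these 27 were lower (41.5%) and 7 higher (10.8%). Among the remaining 133, 37 were lower (27.8%) and 18 higher (13.5%). Of all genes tested the shares were 26.5% and 23.6%, and of protein-coding genes 29.1% and 24.7%. The median log2 fold change of these 133 members was -0.17. The part of the overlapping genes in the lower calls was not tested. Sequence shared with other genes was a smaller limit, since 7 tested members had over 5% of their 50-base windows in common with transcripts of other genes. Of these 7, none was lower and 2 were higher, ZNF354B and ZNF33A.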

How the data were processed

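RNA-seq count files of 6 K562 libraries (3 DMSO, 3 FT671) were used. Per the labels, libraries were made from total RNA after ribosomal RNA depletion (KAPA RNA HyperPrep, riboErase). The authors aligned reads to hg38 with STAR and deposited raw counts per gene without normalization. The submitters' processing notes also name DESeq2. The annotation release and strand setting are not given in the sources used here. ChIP-seq was not analysed here.

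Gene identifiers were matched to GENCODE 44 (60295 of 60609, the unmatched holding 0.0609% of counts). Counts were filtered with filterByExpr, scaled by TMM and compared with edgeR 4.0.16 (R 4.3.3) by the quasi-likelihood test, two-sided, with Benjamini-Hochberg adjustment over all 13895 genes. Log2 CPM used a prior count of 2. KRAB and SCAN domains were found with jackhmmer (HMMER 3.4, 5 rounds, E-value of at most 1e-05), exon overlaps with bedtools 2.31.1. Total counts ranged from 4555220 to 14250500. Replicate libraries of a group differed by more than counting error (chi-square per degree of freedom 2.07 to 8.73). DMSO replicate 3 gave 7.55 against DMSO replicate 1 and 8.73 against DMSO replicate 2, and the other pairs gave 2.07 to 3.2. Replicates came from 3 independent experiments per the study's text, and p-values measure the spread between these cultures. The fit was tested on simulated data.

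Named were the 10 largest rises and 10 largest falls (adjusted p 0.05, mean of at least 1 CPM, groups not overlapping), the 6 highest levels per length, the 5 smallest p-values at 1e-05, examples of each role list (smallest p per direction, most counts), cluster members, and TRIM28, SETDB1 and machinery genes at 1e-05. ZNF398 and ZNF672, the other members at 1e-05, the remaining called members of the lists and clusters and the higher genes of the machinery list were added after their values were seen. The members and lists were chosen with earlier results of these data known. Alternatives were other scalings (DESeq2 1.42.0 size factors, library totals), DESeq2's Wald test, other filters, corrections for GC content and length (loess, span 0.3), the replicate number as a block and leaving out each library.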

Additional observations from a re-analysis of the deposited data

How the results depend on the processing

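At an adjusted p of 0.05 the count of lower ZNF genes outside chromosome 19 ran from 53 to 68 and that of higher ones from 19 to 32 when single libraries were left out, and the median log2 fold change from -0.21 to -0.16. Over the other alternatives on all members, lower members numbered 52 to 69 and higher members 21 to 35. Leaving out the 65 members with overlapping exons took the lower count to 37 of 133, and the share from 32.3% to 27.8%. This is near the 26.5% of all genes tested and below the 29.1% of protein-coding genes, neither of which was filtered for overlap. The share of higher members was 13.5%, against 23.6% of all genes tested, and the median was -0.17. The cause of the smaller share of lower members was not tested. Scaling by library totals gave 69 lower and 21 higher, and the correction for gene length 59 and 33. The count of lower members with exon GC of 55% or more stayed 26 with the correction for GC content. The 4 higher became 6, a comparison added after the data were seen. That correction was fitted over all genes tested, whose trend with GC content was weak, so it could remove little of a steeper trend.

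Counts at 1e-05 (7 lower, 1 higher) depended on the setting, and the cause was not tested. Lower members numbered 17 with DESeq2's Wald test, 33 without a filter on low counts, 17 with the correction for GC content and 12 with that correction and the block. Higher members numbered 4 with DESeq2's Wald test, 6 without the filter, 6 with the GC correction and 4 with that and the block, 2 with the length correction and 5 with that and the block, 0 with library totals and 0 with at least 10 counts in every library. Leaving out single libraries gave 0 to 21 lower and 0 to 11 higher members. DMSO replicate 3 alone raised these counts when left out. It was also the library that differed most from the others of its group (chi-square per degree of freedom 7.55 and 8.73), and the part of this was not tested.

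For ZNF genes on chromosome 19, leaving out single libraries gave 28 to 36 lower and 15 to 27 higher genes and a median of -0.20 to -0.10, and the length correction moved the median to -0.10 (-0.094 with the block). The 27 higher genes came without DMSO replicate 3.

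Replicate numbers are shared by both groups, but the labels do not say that a number marks a common batch. Deviations of same-numbered libraries correlated at 0.115, -0.0605 and 0.14. Replicates 1 and 3 correlated best with their own number and replicate 2 did not. This leaves pairing undecided, and the numbers were not taken as pairs. The spread between replicates as edgeR estimates it (biological coefficient of variation) was 0.0832, and 0.0736 with the replicate block. With the replicate block, 67 members were lower and 23 higher at 0.05, and 8 and 1 at 1e-05.

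Of 43 genes followed, 12 changed a call or direction in some alternative. The log2 fold change of ZNF281 (0.07) turned to -0.021 without DMSO replicate 1 and to -0.014 without DMSO replicate 2, called in neither, and became 0.22 and called without DMSO replicate 3. Below 3 CPM, where 3 counts weigh most, 3 of 23 tested members passed.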
